A study of Rattus norvegicus with 16 samples.

Results

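The 2 liver libraries of a rat small RNA survey were compared with its 2 kidney libraries, which are 4 of the 16 libraries in the series. They were chosen by tissue label from the 12 libraries that cover brain, liver, spleen, heart, testis and kidney, 1 library per tissue and strain. The strains were BN-Lx and SHR, the spontaneously hypertensive rat. All libraries came from whole frozen organs of adult males with no treatment named, and the tissues of a strain came from a single rat, so a liver and a kidney of the same strain form a pair. The other 4 libraries are further livers, 2 of each strain, which are given beside the results and enter no fit unless this is said. They held 1167607 to 3229461 reads each, with reads down to 15 bases against 17 in the 12 libraries. A gap between them and the paired livers therefore cannot be told apart from a difference between the 2 sets of libraries. The SHR liver library was amplified with more PCR cycles than the other liver and the kidneys. With 1 rat per strain, a difference between the strains cannot be told apart from a difference between 2 animals.

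Liver and kidney are both rich in epithelial cells. In the liver these are mostly hepatocytes and bile duct cells, and in the kidney they line the glomerular capsule, the tubules and the collecting ducts. MicroRNAs are short RNAs cut from a hairpin precursor by Dicer, and each hairpin can yield a product from its 5′ arm and from its 3′ arm. The seed, bases 2 to 8 of the product, pairs with target messenger RNAs, so products with the same seed are grouped as a family. mir-122 is the abundant microRNA of hepatocytes. mir-192 and mir-194 are known from liver, kidney and gut epithelium, and the mir-200 family holds epithelial cells in their state by restraining the repressors ZEB1 and ZEB2. Because whole organs were ground, fewer cells of a type and less RNA per cell cannot be told apart in any value below.

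The unit of count was the hairpin arm. The files held 392 hairpins with 707 arms, of which 556 had a read in a liver or kidney library and 386 had at least 10 reads summed over the 4 libraries and were tested. The liver libraries held 468081 reads (BN-Lx) and 501209 reads (SHR), and the kidney libraries 544130 and 597983. mir-122 took 34.4% and 39.0% of the liver reads, 0.0254% and 0.0229% of the kidney reads and 0.0109% to 0.342% of the reads in the 8 libraries of the other tissues. In the 4 further livers its share was 46.0% to 49.7%. It was left out of the scaling, and levels are given as reads-per-million (RPM) of the library without mir-122. Comparisons were made within an arm between libraries, since a difference in reads between 2 arms also holds the efficiency with which each is ligated and amplified.

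The labels were checked against the markers. In the livers mir-122-5p had 124614 and 161586 reads against 67 and 71 in the kidneys (log2 difference 11.84 ± 0.38, SE, adjusted p = 2.88e-08, edgeR). Its other arm, mir-122-3p, had 36497 and 33796 reads against 71 and 66. mir-192-5p was high in all 4 libraries. The kidney marker mir-200b-3p had 2730 and 8716 RPM in the BN-Lx and SHR kidneys and 267 and 284 RPM in the livers, which is in the direction of its label, although its adjusted p of 0.0527 missed the threshold of 0.05. It passed in 7 alternatives, among them DESeq2 (0.0146), the fit with the further livers added (0.0181) and the fit without the strain block.

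The mature sequences of the products that the organs share are given from RefSeq, with positions in rat build GRCr8 and the seed in capitals. mir-192 and mir-215 share a seed, and both are neighbours of a mir-194 gene. Mir194-2 (chr1:212994024-212994108) and Mir192 (chr1:212994209-212994318) lie on the plus strand with 100 bases between them. Mir194-1 (chr13:99382716-99382798) and Mir215 (chr13:99382990-99383086) lie 191 bases apart.
mir-192-5p: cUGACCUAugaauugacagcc
mir-215-5p: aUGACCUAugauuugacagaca
mir-194-5p: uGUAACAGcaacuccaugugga
mir-192-3p: cUGCCAGUuccauaggucacag

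For the kidney side the sequences given are those of members of the mir-200 and mir-196 families, of mir-205 and of mir-30a. mir-200a and mir-141 share the seed AACACUG, while mir-200c has the seed AAUACUG. The line for mir-200a gives the most frequent read of that arm, located in the RefSeq hairpin. Mir429, Mir200a and Mir200b lie on the minus strand of chromosome 5 between 171929682 and 171931589, and Mir141 and Mir200c on the minus strand of chromosome 4 between 159209525 and 159210033.
mir-200a-3p: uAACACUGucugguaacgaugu
mir-141-3p: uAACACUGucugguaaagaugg
mir-200c-3p: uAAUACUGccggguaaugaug
mir-196a-5p: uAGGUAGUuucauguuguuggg
mir-196b-5p: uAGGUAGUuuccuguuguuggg
mir-205-5p: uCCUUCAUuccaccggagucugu
mir-30a-5p: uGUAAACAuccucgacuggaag

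On the liver side the sequences are those of mir-31 and of the 2 arms of mir-22, the hairpin whose leading arm differed between the organs.
mir-31-5p: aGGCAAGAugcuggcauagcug
mir-22-5p: aGUUCUUCaguggcaagcuuua
mir-22-3p: aAGCUGCCaguugaagaacugu

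What the organs had in common was led by mir-192. mir-192-5p had the most reads of all arms other than mir-122 in each of the 4 libraries, at 222093 RPM in the BN-Lx liver, 161611 in the SHR liver, 97250 in the BN-Lx kidney and 71139 in the SHR kidney. It thus made up 22.2% and 16.2% of the liver reads and 9.72% and 7.11% of the kidney reads once mir-122 was set aside. In brain, spleen, heart and testis it ranged from 1015 to 5898 RPM. Liver and kidney together stood 5.92 ± 0.16 (SE) above these tissues on the log2 scale (adjusted p = 4.4e-09). The lower of liver and kidney was 16.5 times the highest other tissue in BN-Lx and 19.3 times in SHR.

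mir-192-3p, the less frequent product of the same hairpin, followed the same order. It had 2329 and 2008 RPM in the livers, 1119.5 and 865 RPM in the kidneys and 9.92 to 74.7 RPM elsewhere. Its excess in liver and kidney over the other tissues was 5.70 on the log2 scale (adjusted p = 5.98e-07).

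mir-194-5p is identical in its first 22 bases from both hairpins, so the pipeline of the study divided its reads between mir-194-1 and mir-194-2. Their sum was 3864 and 6680 RPM in the BN-Lx and SHR livers, 1037 and 4312 RPM in the kidneys and 36.5 to 224 RPM in the other tissues. The BN-Lx kidney was the lowest of the 4 and the SHR kidney lay above the BN-Lx liver, so the organs overlapped. mir-194-2-5p was 5.22 above the other tissues (adjusted p = 2.54e-05) and mir-194-1-5p 5.0 (adjusted p = 0.000197). Reads of 23 bases, which reach the base where the hairpins part, fell to mir-194-2 in both organs. They numbered 319 against 10 and 938 against 63 in the livers, and 382 against 9 and 831 against 44 in the kidneys. An A added to the 3′ end after cutting could not be told from the last base of such a mir-194-2 read.

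mir-215-5p, which has the seed of mir-192, was scarce. It had 3 and 4 reads in the livers and 31 and 14 in the kidneys (log2 difference -1.81 ± 0.97, adjusted p = 0.198). The seed UGACCUA, summed over both genes, amounted to 222103 and 161624 RPM in the livers and 97307 and 71162 RPM in the kidneys, and mir-215 thus hardly changed the family total.

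By the rule of the study for tissue-specific products, applied to the organs together, an arm is shared when the lower of liver and kidney is at least 5-fold above every other tissue in both strains. The rule held for 3 arms, mir-192-5p, mir-192-3p and mir-194-2-5p (0.777% of the arms tested). For mir-194-2-5p the ratio was 5.80 in BN-Lx and 36.6 in SHR. Just outside stood mir-10a-5p, with ratios of 2.47 and 2.91, and mir-194-1-5p, with 2.17 and 43.0. The 2 testis libraries, at 26880 and 29131 reads, were the shallowest of the set, and without them the rule held for 4 arms.

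The test of liver and kidney against the other 4 tissues called 126 arms (32.6%), 60 higher in liver and kidney (15.5%) and 66 lower (17.1%). Of the 60, 35 showed no called difference between liver and kidney. All 4 arms of mir-192 and mir-194 with the most reads were among the 60, and so was mir-203-3p, a product known from stratified epithelium. mir-203-3p had 1251 and 873 RPM in the livers and 2509 and 1505 RPM in the kidneys, against 52.4 to 516 RPM elsewhere (log2 excess 3.43, adjusted p = 1.96e-05).

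**Figure D1:**
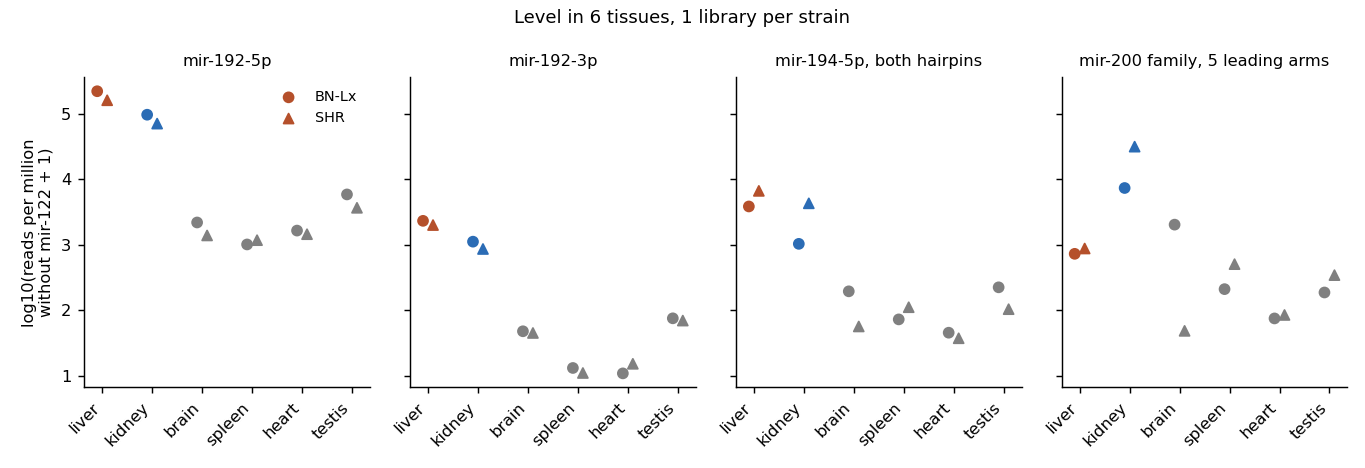
Levels of mir-192-5p, mir-192-3p, mir-194-5p summed over both hairpins and the 5 leading arms of the mir-200 family in the 6 tissues of each strain, in RPM without mir-122 on a log axis. For both arms of mir-192 and for mir-194-5p all 4 liver and kidney points lie above every other tissue, while the mir-200 family reaches 7393 and 31645 RPM in the kidneys and 730 and 880 RPM in the livers.

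Among the shared products a difference between the organs was called for mir-192-5p alone. It was 2.28 times as high in liver as in kidney in BN-Lx and 2.27 times in SHR, and both livers lay above both kidneys (log2 difference 1.13 ± 0.24, adjusted p = 0.0112). The 4 further livers, at 113448 to 147023 RPM, also lay above both kidneys. The mir-192-5p call was lost without the BN-Lx liver (adjusted p = 0.104) and without the SHR kidney (adjusted p = 0.0577). For mir-192-3p the difference was 1.07 ± 0.42 (adjusted p = 0.0817), although it passed with RLE scaling (0.0332), in DESeq2 (0.000784) and in the alternatives of equal depth and of at least 100 reads. For mir-194-1-5p and mir-194-2-5p it was 1.07 ± 0.87 and 0.94 ± 0.65 (adjusted p = 0.393 and 0.31). These values moved with the kidney that was left out. Without the BN-Lx kidney they were 0.08 and 0.38, and without the SHR kidney 3.37 and 2.0, the former then called (adjusted p = 0.0237). Of the 6 tested arms of mir-192, mir-194 and mir-215, 1 was thus called higher in liver, none was called higher in kidney, and the median was 1.03, beside -0.41 for all arms tested.

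Both organs cut mir-192 at the same base. The leading 5′ end of mir-192-5p held 92.6% and 91.4% of its reads in the livers, 91.8% and 92.3% in the kidneys, and 83.3% to 87.2% in the further livers. Over the 71 named arms with at least 100 reads in each of the 4 libraries, 70 had the same leading 5′ end in all 4, and 57 also had the same leading 3′ end. The exception was mir-126-3p, a product of the endothelium, where the leading start held 51.5% to 58.9% of the reads in 3 libraries and the start 1 base upstream held 51.8% in the SHR kidney. That upstream start also led in all 4 further livers, at 53.5% to 62.2%. For 37 arms the leading end could be set beside a RefSeq mature sequence in all 4 libraries. Of these, 36 began at the RefSeq base, and mir-101a-3p began 1 base away. mir-142-5p, compared in the SHR liver and both kidneys only, began at an offset of -2 bases.

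What parted the organs was a larger set. Between liver and kidney 104 of the 386 arms passed the test (26.9%), 41 higher in liver (10.6%) and 63 higher in kidney (16.3%). A product of several hairpins counts once for each of them. With such hairpins summed, 94 of 353 arms were called. In 100 of the 104 the difference had the same sign in both strains, as it had in 268 of all 386. The livers lay on one side of the kidneys without overlap for 241 arms (62.4%), and all 6 livers did so for 166 arms (43.0%). Among the called arms all 6 livers lay on the called side for 31 of 41 and 57 of 63. The balance of the directions depended on the scaling. The median arm lay at -0.41, and with scaling factors taken as the median ratio to a geometric mean (RLE) the median was -0.13 and the split 50 higher and 40 lower in liver. DESeq2 gave 59 and 53, thinning to equal depth 50 and 46, arms with at least 100 reads 42 and 34, and the fit without the SHR liver 24 and 20. A difference of less than about 0.41 on the log2 scale is therefore not given a direction here.

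A difference of at least 5-fold in both strains was found for 17 arms in favour of liver (4.4%) and 27 in favour of kidney (6.99%), and 40 of these 44 also passed the test. With mir-122 kept in the library total the split was 12 and 42. Of the 17, 8 had at least 100 reads in each liver, and of the 27, 14 had at least 100 reads in each kidney. At the other end, 94 arms differed by less than 2-fold in both strains. Ranked over the tested arms, the livers were more like each other (Spearman's rho 0.933) and the kidneys like each other (0.885) than a liver was like a kidney (0.743 to 0.773). These are correlations over arms within libraries and share the composition of each library.

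**Figure D2:**
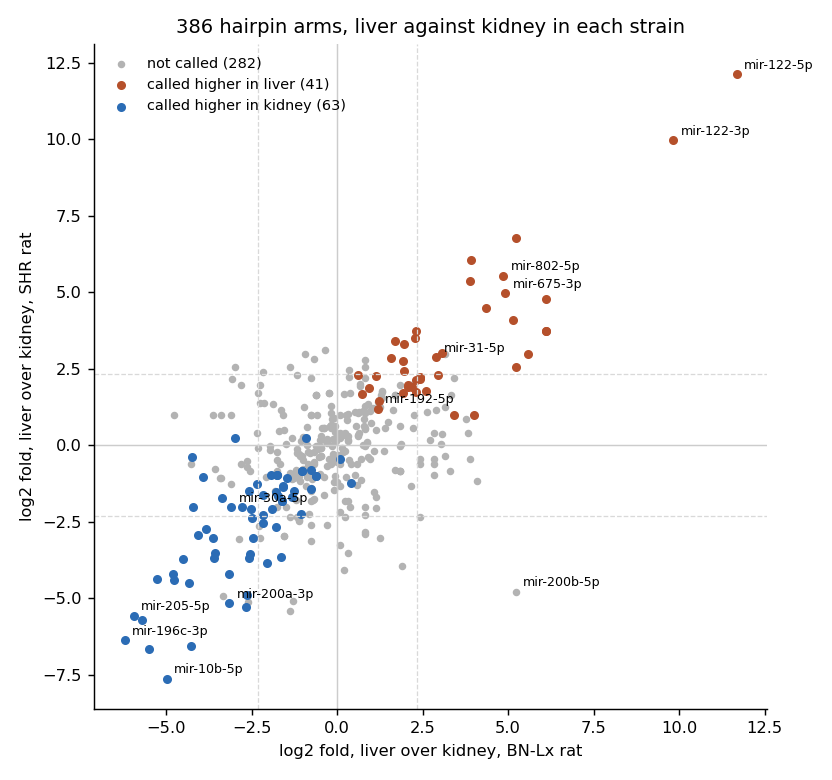
Log2 of liver over kidney in BN-Lx (horizontal) and in SHR (vertical) for the 386 arms tested, with arms at 0 reads set to 3 reads and dashed lines at 5-fold. The 41 arms called higher in liver, with both arms of mir-122 at the top right, and the 63 called higher in kidney lie mostly in the corners where both strains have the same sign, and the 282 arms not called fill the centre.

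The reads of liver were the more concentrated. Without mir-122 the 10 leading arms held 56.8% and 52.8% of the liver reads and 49.6% and 45.2% of the kidney reads. With mir-122 counted these shares became 69.2% and 68.8% in liver and remained 49.6% and 45.2% in kidney. The same 7 arms were among the leading 10 of all 4 libraries. These were mir-192-5p, mir-145-5p, mir-21-5p, mir-29a-3p, mir-23b-3p and mir-24-3p, counted once for each of its 2 hairpins.

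The counts of each list below stand beside 10.6% of all arms called higher in liver and 16.3% called higher in kidney. The lists were chosen with earlier results of these data known, so a count above these shares is not independent support. The hepatocyte list also holds mir-122, the marker used to check the labels. Of the microRNAs listed for hepatocytes, 16 arms were tested, 7 were higher in liver and 1 was higher in kidney, with a median of 2.02. The exception was mir-101a-3p, which had 1547 and 2528 RPM in the livers, 4276 and 5297 RPM in the kidneys and 3757 to 5112 RPM in the further livers (log2 difference -1.31 ± 0.38, adjusted p = 0.0326). It lost the call without any 1 of the 4 libraries, with adjusted p-values up to 0.183, and had the opposite sign, 0.14, with the further livers added. The 7 were both arms of mir-122, mir-802 and mir-31, and mir-22-5p. mir-802-5p had 2613 and 3705 RPM in the livers and 90.1 and 80.3 RPM in the kidneys. The livers were thus 29.0 and 46.1 times as high (log2 difference 5.11 ± 0.74, adjusted p = 0.00235), and the further livers, at 1441 to 1831 RPM, lay on their side. In the 4 other tissues it did not exceed 34.2 RPM. mir-802-3p differed by 5.08 on at most 5 kidney reads, and its call was lost in DESeq2 (adjusted p = 0.449) and without either liver (0.111 and 0.0877).

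mir-31-5p had 15435 and 7805 RPM in the livers and 2077 and 1071 RPM in the kidneys, a ratio of 7.43 and 7.29 (log2 difference 2.83 ± 0.52, adjusted p = 0.00483). The further livers spread from 1382 to 9714 RPM and overlapped the kidneys, so the liver libraries differed more widely in mir-31-5p than the 2 paired livers did. Its 3′ arm had 1990 and 1442 RPM against 132 and 21.7 RPM (log2 difference 4.61 ± 0.70), and all 4 further livers, at 848 to 2412 RPM, lay above the kidneys.

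The other large differences in favour of liver came from products of several origins. mir-466b-3p, from a rodent family of repeat-rich hairpins, had 290 and 379 reads in the livers and 35 and 18 in the kidneys for the first hairpin, and 264 and 276 against 23 and 24 for the second. The log2 differences were 4.44 and 4.36 (adjusted p = 0.00104 for both). The RefSeq products of the 2 hairpins differ in seed. Reads that matched both hairpins were divided between them, and their number was not determined, so the 2 differences may not be independent. mir-365-3p had 19002 and 23088 RPM in the livers and 3824 and 1739.6 RPM in the kidneys (log2 difference 2.79 ± 0.56, adjusted p = 0.00824). Leaving out the BN-Lx liver took its adjusted p to 0.0516.

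mir-675-3p is cut from the imprinted non-coding RNA H19. It had 51 and 48 reads in the livers and 0 in both kidneys. At a floor of 3 reads per library, the number a count of 0 allows, it was at least 30.1-fold higher in the BN-Lx liver and at least 31.3-fold higher in the SHR liver. mir-511-1-3p, whose gene lies in an intron of the macrophage mannose receptor Mrc1, had 42 and 56 reads in the livers and 2 and 1 in the kidneys (log2 difference 5.71 ± 0.75, adjusted p = 0.00104).

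Of the let-7 family, which restrains growth and is present in most adult tissues, 20 arms were tested, 3 were higher in liver and 1 higher in kidney, with a median of 0.31, beside 10.6% and 16.3% called over all arms. The kidney call, let-7b-5p, was lost in 13 of 18 alternatives, among them RLE scaling (0.0893) and each left-out library (0.0926 to 0.189), and its difference fell from -1.43 to -0.39 with the further livers added (0.621). let-7f-1-5p had 15875 and 15587 RPM in the livers and 3803 and 4141 RPM in the kidneys (log2 difference 1.94 ± 0.32, adjusted p = 0.00264). let-7f-2-5p, whose mature product is the same, differed by 1.97. The further livers held let-7f-1-5p at 23646 to 31206 RPM, above the paired livers.

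On the kidney side the largest folds belonged to products of genes that lie within the Hox clusters. mir-196b-3p had 0 reads in both livers and 205 and 121 in the kidneys, which at the floor of 3 reads is at least 38.6-fold and 20.6-fold higher in kidney. mir-196b-5p had 0 reads in both livers and 34 and 229 in the kidneys. mir-196a-5p, which has the same seed, had 1 and 0 reads in the livers and 93 and 311 in the kidneys. mir-196c-3p had 3 and 2 reads in the livers and 397 and 326 in the kidneys (log2 difference -6.36 ± 1.05, adjusted p = 0.00264), and it had 0 reads in all 4 further livers. For mir-196a-5p, mir-196b-3p and mir-196b-5p DESeq2 made no call, with adjusted p = 0.262, 0.195 and 0.227. For mir-196a-5p and mir-196b-5p the call was also lost without the SHR liver (0.0808 for both) and without the SHR kidney (0.0577 and 0.0658).

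mir-10b-5p was more abundant in the kidneys than the mir-196 arms above. It had 58.6 and 19.6 RPM in the livers and 1858 and 3892 RPM in the kidneys, so the kidney was 31.7 and 198 times as high (log2 difference -6.23 ± 0.72, adjusted p = 0.000559). The further livers lay at 26.0 to 119 RPM. mir-10a-5p was present in both organs, at 779 and 732 RPM in the livers and 2710 and 4694 RPM in the kidneys (log2 difference -2.31 ± 0.61, adjusted p = 0.0251). Its call was lost when either liver or the SHR kidney was left out, with adjusted p from 0.0729 to 0.147. Against the other tissues, where it had at most 316 RPM, liver and kidney together were 4.61 higher (adjusted p = 2.54e-05).

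mir-205-5p, an epithelial product that acts with the mir-200 family on ZEB1 and ZEB2, had 8 and 5 reads in the livers and 874 and 469 in the kidneys (log2 difference -5.83 ± 0.89, adjusted p = 0.00264). It ranged from 8.45 to 20.3 RPM in the further livers, below the 1607 and 784 RPM of the kidneys.

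Of the mir-200 family 8 arms were tested, 4 were higher in kidney and none in liver, with a median of -4.54 and a range from -6.07 to -2.49. mir-200a-3p had 420 and 553 RPM in the livers and 3750 and 19811 RPM in the kidneys (log2 difference -4.52 ± 1.35, adjusted p = 0.0355). mir-429, which the files place on the 5′ arm of its hairpin and the RefSeq hairpin holds on the 3′ arm, had 29.3 and 26.2 RPM in the livers and 566 and 2489 RPM in the kidneys (-5.85, adjusted p = 0.0355). mir-200c-3p had 3 and 4 reads in the livers and 108 and 179 in the kidneys (-4.56, adjusted p = 0.0223), and mir-141-3p had 1 and 1 against 81 and 197 (-6.07, adjusted p = 0.0316). The kidneys differed from each other within the family. The 5 leading arms summed to 7393 RPM in the BN-Lx kidney and 31645 RPM in the SHR kidney, and the standard errors of over 1 on the log2 scale came with this spread. The livers held 730 and 880 RPM and the further livers 1513 to 2946 RPM, so all 6 livers were below both kidneys. Each of the 4 calls was lost when either liver or the SHR kidney was left out, with adjusted p from 0.0805 to 0.189. With RLE scaling mir-200a-3p and mir-429 missed the threshold, at 0.0504 and 0.0503, and with the further livers added mir-141-3p did, at 0.0935.

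Of the microRNAs listed for kidney tubules, which include the mir-30, mir-10, mir-196 and mir-182 groups, 31 arms were tested. Of these, 14 were higher in kidney and none in liver, with a median of -1.69. The list was not particular to kidney. It summed to 128822 and 181704 RPM in the kidneys, 56768 and 73695 RPM in the livers and 109779 and 100306 RPM in the hearts. In brain, spleen and testis it ranged from 41313 to 72383 RPM. mir-30a-5p had 3942 and 12141 RPM in the livers, 33878 and 49326 RPM in the kidneys and 5770 to 6254 RPM in the further livers (log2 difference -2.50 ± 0.46, adjusted p = 0.00497). mir-30c-5p, counted for both of its hairpins, differed by -1.79 (adjusted p = 0.00235) and mir-30e-5p by -2.33 (adjusted p = 0.0188). mir-30d-5p and mir-30b-5p, which share the mir-30 seed, were not called, and the fitted differences were -0.00 and 0.30. mir-204-5p had 293 and 340 RPM in the livers and 737 and 1104 RPM in the kidneys (-1.58 ± 0.37, adjusted p = 0.0144). The call of mir-30e-5p was lost without the BN-Lx liver (0.0759) or the SHR kidney (0.0658), and that of mir-204-5p without either liver or the SHR kidney (0.0511 to 0.0877).

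Other products were higher in kidney without being on that list. mir-218-5p, from genes in introns of Slit2 and Slit3, summed over its 2 hairpins to 733 and 566 RPM in the livers and 8886 and 6876 RPM in the kidneys (log2 differences -3.70 and -3.60, adjusted p = 0.000559 for both). mir-135a-5p had 6 and 11 reads in the livers and 241 and 286 in the kidneys (-4.10 ± 0.67), and mir-672-5p had 2 and 4 against 100 and 146 (-4.51 ± 0.67). mir-7a-1-3p had 22.8 and 19.6 RPM in the livers and 625 and 415 RPM in the kidneys (-4.64 ± 0.51, adjusted p = 0.000559). The further livers held it at 405 to 552 RPM, within the range of the kidneys, and with them added to the fit the adjusted p was 0.982. The low value of mir-7a-1-3p in liver was thus seen in the paired livers and not in the further ones.

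**Figure D3:**
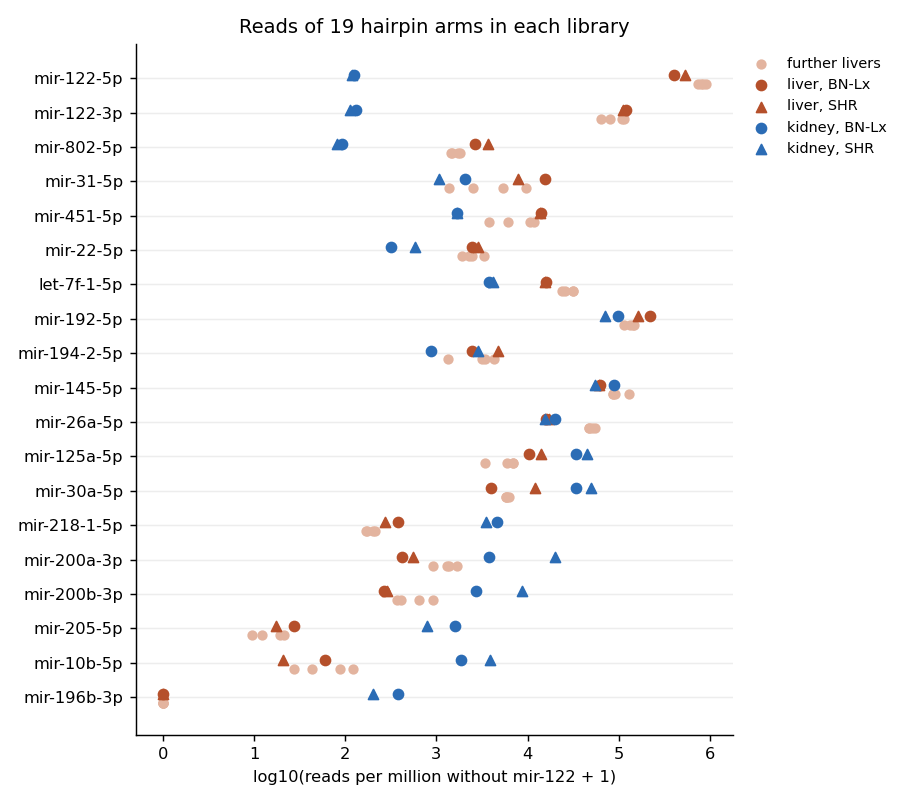
Levels of 19 arms in the 2 livers, the 2 kidneys and the 4 further livers, as log10 of 1 plus the RPM without mir-122. mir-192-5p is the highest arm drawn in both kidneys and, apart from mir-122, in the 2 paired livers, mir-802-5p is higher in all 6 livers than in the kidneys, mir-31-5p is higher in the 2 paired livers while the further livers overlap the kidneys, and mir-10b-5p and mir-205-5p are lower in all 6 livers.

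Families with many reads in the paired libraries of both organs came next. Over all arms 16.3% were called higher in kidney. Of the mir-23/24/27 group 10 arms were tested and 3 were higher in kidney, with a median of -0.73. These were mir-24-3p, counted for both hairpins, at -0.85 (adjusted p = 0.0307), and mir-23b-3p at -0.86 (adjusted p = 0.0277). mir-24-3p, summed over its hairpins, had 61557 and 47687 RPM in the paired livers and 95288 and 95317 RPM in the kidneys, but 8986 to 12607 RPM in the further livers, so the size of the gap to kidney depended on which livers were used. With RLE scaling none of the 3 passed the test (adjusted p = 0.108 to 0.118). mir-24-3p lost the call without the SHR liver or either kidney (up to 0.189) and mir-23b-3p without any 1 library (up to 0.123), and mir-23b-3p turned to 0.19 with the further livers added. In the group of mir-99, mir-100 and mir-125 3 of 11 arms were higher in kidney, with a median of -0.57. mir-125a-5p, at 10278 and 14011 RPM in the livers and 34146 and 44393 RPM in the kidneys, differed by -1.76 ± 0.27 (adjusted p = 0.00235), and mir-99b-5p, from the same cluster, by -2.35 (adjusted p = 0.00971, or 0.0868 without the BN-Lx liver). Of the mir-29 group 3 of 8 arms were higher in kidney with a median of -1.22, and mir-29b-3p was counted for both of its hairpins. mir-29b-3p differed by -1.53 (adjusted p = 0.0126, or up to 0.0785 without either liver or the BN-Lx kidney), while mir-29a-3p, at 61511 and 63389 RPM in the livers and 50339 and 36307 RPM in the kidneys, was not called. The whole mir-29 group summed to 86458 and 87285 RPM in the paired livers, above the 82612 and 63050 RPM of the kidneys. In the further livers it summed to 3939 to 25346 RPM, below both kidneys.

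In the mir-181 group 6 of 11 arms were higher in kidney, with a median of -1.92, beside 16.3% over all arms. In the group of mir-103 and mir-107 it was 3 of 6 with a median of -1.0, and mir-103-3p was counted for both of its hairpins. The latter 3 lost the call in fits without 1 library, with adjusted p up to 0.135, and mir-103-3p also with RLE scaling (0.102) and in DESeq2 (0.0857). Of the mir-17-92 cluster and its paralogues, which drive proliferation, 2 of 24 arms were higher in liver, both mir-92a-3p, which is close to the 10.6% called higher in liver over all arms, and the median was 0.19. Their calls were lost without any 1 library, with adjusted p up to 0.129. None of the 3 mir-26 arms was called, and the median was -0.17. The group summed to 64976 to 71433 RPM in the further livers against 24899 and 20447 RPM in the kidneys, and with the further livers added mir-26b-5p was called higher in liver (2.03, adjusted p = 0.0302).

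The 5 arms with the most reads among those within 1.5-fold in both strains were mir-145-5p, mir-29c-3p, mir-23a-3p, mir-26a-5p and mir-126-3p. This near equality held for the paired libraries. In the further livers mir-26a-5p had 47102 to 55256 RPM against 20144 and 15665 RPM in the kidneys, mir-126-3p had 26739 to 47968 against 17214 and 17998 RPM, and mir-29c-3p had 1048 to 5129.5 against 21639 and 17296 RPM, with no overlap for any of the 3. mir-23a-3p, at 26364 to 32008 RPM there, also lay above the 24661 and 23983 RPM of the kidneys. mir-145-5p, known from smooth muscle, had 62925 and 61156 RPM in the livers and 89584 and 54317 RPM in the kidneys. Its difference was -0.27, with a 95% interval from -0.90 to 0.37. The intervals ran from -0.80 to 0.46 for mir-26a-5p, from -1.11 to 0.31 for mir-126-3p, from -0.99 to 1.05 for mir-29c-3p and from -1.08 to 0.12 for mir-23a-3p. These intervals come from the fit on the paired livers and do not hold the spread to the further livers. mir-21-5p, at 78793 and 110523 RPM in the livers and 32037 and 32820 RPM in the kidneys, differed by 1.49 ± 0.77 (adjusted p = 0.181). It passed in the fit of the 4 libraries alone (0.0284) and with the further livers added (0.0451), among which it ranged from 38095 to 156013 RPM.

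The arm that dominated a hairpin was nearly always the same in both organs. Over 93 hairpins with at least 100 reads in each library the share of reads on the 5′ arm differed between liver and kidney by a median of 0.424 percentage points, and it differed by less than 10 points in 83. The leading arm changed in both strains for a single hairpin, mir-22. Its 5′ arm held 66.9% (95% exact interval 64.1% to 69.7%) and 66.2% (63.6% to 68.8%) of the mir-22 reads in the livers and 27.3% (23.9% to 31.0%) and 16.8% (15.2% to 18.5%) in the kidneys. In the further livers the share was 63.6% to 70.1%. The interval covers counting error only, since reads amplified by PCR without molecular identifiers are not independent molecules.

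The arms of mir-22 differed in how they parted the organs. mir-22-5p had 2433 and 2864 RPM in the livers and 318 and 585 RPM in the kidneys (log2 difference 2.56 ± 0.58, adjusted p = 0.0135), and the call was lost without the BN-Lx liver (0.0782) or without the BN-Lx kidney (0.0521). mir-22-3p had 1202 and 1462 RPM in the livers and 846 and 2902 RPM in the kidneys (-0.46 ± 0.55, adjusted p = 0.575). The libraries of the 2 organs overlapped for mir-22-3p and did not for mir-22-5p. In the other tissues the 5p share of mir-22 was 61.0% and 58.3% in brain, 47.4% and 40.6% in spleen and 33.7% and 50.9% in heart. Of the 10 hairpins that differed by 10 points or more, 6 did not overlap between the organs. For mir-122 the 5p share was 77.3% and 82.7% in the livers and 48.6% and 51.8% in the kidneys, the latter on 138 and 137 reads. The further livers had a mir-122 share of 86.6% to 92.7%. For mir-28 the 5p share was 71.3% and 77.4% in the livers and 88.3% and 90.8% in the kidneys. The further livers, at 81.3% to 90.3%, overlapped the kidneys, so the mir-28 gap was that of the paired livers. Others rested on single libraries. For mir-130a the share was 6.5% and 13.1% in the livers but 74.6% and 5.4% in the kidneys, and for mir-199a it was 37.5% and 93.3% in the livers and 50.8% and 50.1% in the kidneys.

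**Figure D4:**
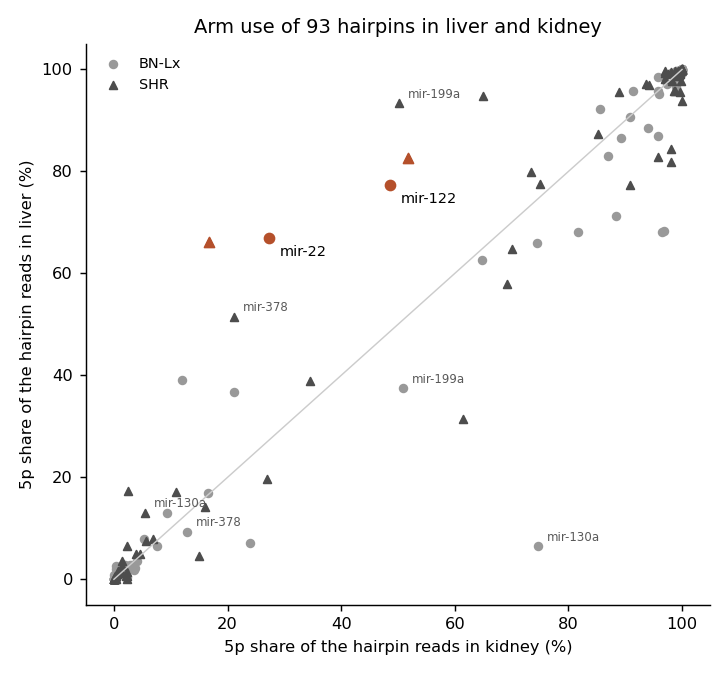
Share of reads on the 5′ arm in kidney (horizontal, percent) and in liver (vertical, percent) for the 93 hairpins with at least 100 reads in each library, with 1 point per hairpin and strain. Most points lie near 0% or 100% on the diagonal, and mir-22 lies above it, at 66.9% and 66.2% in the livers and 27.3% and 16.8% in the kidneys.

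Markers of other cell types were summed in each organ, and their part in the differences above was not tested. The 12 arms of blood cell markers summed to 33977 and 40881 RPM in the livers, 13098 and 8617 RPM in the kidneys and 277246 and 249042 RPM in the spleens. Of the 10 tested, 3 were higher in liver and none in kidney, with a median of 1.39. mir-451-5p, a product of red blood cell precursors, had 14021 and 13606 RPM in the livers and 1686 and 1699 RPM in the kidneys (log2 difference 2.97 ± 0.48, adjusted p = 0.00264). mir-223-3p, from the myeloid lineage, had 11206 and 14093 against 5116 and 2939 RPM (1.55 ± 0.35, adjusted p = 0.0135), and mir-144-5p, the neighbour of mir-451, differed by 2.25 (adjusted p = 0.0158). The call of mir-223-3p was lost without either liver or the SHR kidney (0.0503 to 0.0759), and that of mir-144-5p without the BN-Lx liver (0.111) or the SHR kidney (0.0639).

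For vessel markers none of 5 arms was called, with a median of -1.85. The sum of these markers differed less, at 16725 and 15859 RPM in the livers and 19283 and 20571 RPM in the kidneys. The further livers, at 42641 to 62414 RPM, lay above both kidneys. For smooth muscle and mesenchyme 1 of 6 was higher in kidney, mir-199a-5p (-1.93, adjusted p = 0.0193, and 0.0575 to 0.133 without either liver or the SHR kidney), with a median of -0.85. Heart and skeletal muscle markers were low, at 397 and 288 RPM in the livers and 77.2 and 181 RPM in the kidneys, and 4 of 7 tested arms were higher in liver. The further livers ran from 42.9 to 1399 RPM. mir-1-3p lost its call without the BN-Lx liver (0.115) or the BN-Lx kidney (0.0656), and mir-206-3p without either liver (0.122 and 0.0877), without the BN-Lx kidney (0.117) and with the further livers added (0.0935). Neuron markers gave no call among 9 arms, with a median of 0.28. The single pancreas arm tested was not called, and 5 of the 8 pancreas arms had 0 reads in all 4 libraries. Germ cell markers stood apart in the BN-Lx kidney and in 1 further liver. They summed to 3.26 and 3.27 RPM in the livers, 404 RPM in the BN-Lx kidney and 11.7 RPM in the SHR kidney, beside 97432 and 145719 RPM in the testes. In the further livers they were 1.21, 5.43 and 52.2 RPM in 3 libraries and 692 RPM in the other, a BN-Lx liver. In the BN-Lx kidney 4 of them, mir-202-5p, mir-463-5p, mir-742-3p and mir-743b-3p, had 46, 49, 42 and 56 reads. None of the products described above belongs to that list, and 1 of its 5 tested arms was called.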

How the data were processed

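Total RNA of whole organs was made into small RNA libraries with the SREK kit and read on the SOLiD platform. Per the labels and the methods of the study, the authors trimmed the linker, mapped with SHRiMP to hairpins found by the miRIntess pipeline (miRBase, genome RGSC3.4), kept perfect matches and divided a read evenly among the hairpins it matched. The deposited values used are counts of reads per read position on a hairpin, so a count need not be whole (expected counts). They were summed per hairpin and arm and rounded to whole numbers for the test. Depth was 468081 to 597983 reads per liver or kidney library. Arms named were those of fixed lists, the largest changes past the test with at least 100 reads in each library of the higher organ, the leading arms and the nearest equal ones. mir-675-3p, mir-511-1-3p and mir-218-5p fall outside that rule and were chosen after their values were seen. The libraries, members and lists were chosen with earlier results of these data known.

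Arms with at least 10 reads in the 4 libraries were fitted in edgeR 4.0.16 (R 4.3.3, quasi-likelihood, trimmed mean of M-values scaling without mir-122) over the 12 libraries of the tissue survey, with tissue and strain as terms. P-values are two-sided and adjusted by Benjamini-Hochberg over all 386 arms at 0.05. The biological coefficient of variation was 0.455. The strain is a block because the tissues of a strain came from a single rat, although the strain deviations of liver and kidney did not move together (Pearson's r -0.00305 over arms). Exact tests on 2 against 2 libraries cannot reach 0.05, so none was used. Folds set 0 reads to 3. Shares carry 95% exact binomial intervals. The script was run on simulated counts without a strain effect and with a spread set below the fitted one. That run checks the code and does not bear on the calls. DESeq2 1.42.0 was an alternative, beside other scalings, filters, samples and left-out libraries.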

Additional observations from a re-analysis of the deposited data

Results flagged for a closer look

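For 7 of the 75 arms followed through the alternatives, the ratio of liver to kidney lay on opposite sides of equality in BN-Lx and SHR. The same held for mir-200b-5p, which was added because it differed by more than 5-fold each way. With 1 rat per strain the difference between the strains was not tested. The widest gap was that of mir-200b-5p, whose liver level was 37.2 times that of the kidney in BN-Lx and 0.036 times in SHR, on 21 and 6 liver reads and 1 and 326 kidney reads. For mir-378-3p the ratios were 1.29 and 0.247, and the SHR liver held 4784 RPM against 21611 in the BN-Lx liver and 29983 to 41114 in the further livers. For mir-22-3p the ratios were 1.42 and 0.504. The other 5 lay within 1.5-fold of equality in both strains, with liver over kidney in BN-Lx and in SHR of 0.981 and 1.11 for mir-30d-5p, 1.09 and 0.943 for mir-99a-5p, 0.987 and 1.17 for mir-29c-3p, 0.702 and 1.13 for mir-145-5p, and 0.794 and 1.09 for mir-26a-5p. At least 1 ratio of each of these 5, and the BN-Lx ratio of mir-378-3p, lay under the log2 difference below which no direction is given. Opposite directions in the strains are therefore not read for these arms. Among the 4 further livers none of the 13 values examined had a sample far from the others by Dixon's criterion. The germ cell markers were not among the 13. Their sum was 692 RPM in 1 further BN-Lx liver and 1.21 to 52.2 RPM in the rest.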

How the results depend on the processing

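The 104 arms called between liver and kidney numbered 75 to 149 under the other scalings, filters and sample sets, except that the fit on the 4 libraries alone, which has 1 residual degree of freedom, called 42, and that leaving out 1 of the 4 libraries called 40 to 66. Without the strain block, that is without the pairing by rat, the counts were 112 and, for liver and kidney against the other tissues, 133 beside 126, and among the 56 called arms followed through the alternatives let-7b-5p lost its call. Of these 56 arms, 23 kept the call in every alternative run, 31 lost it in at least 1 fit without a library, 9 lost it in DESeq2 and 9 with RLE factors. The arms mir-101a-3p (0.14) and mir-23b-3p (0.19), called higher in kidney, had the opposite sign with no call when the further livers were added (adjusted p = 0.881 and 0.785). Both values lay under the log2 difference below which no direction is given, so they are read as lost calls. The cause was not tested. Over 1325 pairs of an arm and an alternative, 1145 stayed on their side of the threshold. Of these 1145, 42 changed sign with no call on either side. The call was lost with the same sign in 163 pairs and gained in 15. The other 2 were the lost calls with a changed sign just named. A fold of 2 in place of 5 gave 128 arms apart and 6 shared, and a fold of 10 gave 26 apart, beside 44 and 3, which follows from the threshold itself. With mir-122 counted, the 10 leading arms held 69.2% (BN-Lx) and 68.8% (SHR) of the liver reads. Arms with few reads in one organ, such as those of mir-196, are limited by depth.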
